A study of Mus musculus with 52 samples.

Results

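The SR proteins, the hnRNP proteins and the Rbfox, Celf, Nova and Ptbp proteins regulate which exons are joined when pre-mRNA is spliced. Here RNA polymerase II (Pol II) density at the transcription start sites (TSSs) of their genes was followed in stimulated mouse neurons. The members were all symbols of the Pol II table that begin with Srsf, Hnrnp, Rbfox, Celf, Nova or Ptbp. This gave 45 of the 24194 gene symbols in the table, with 11 Srsf, 20 Hnrnp, 3 Rbfox, 6 Celf, 2 Nova and 3 Ptbp genes. The 45 genes have 65 of the 27815 TSS windows, each of 600 bp, and each gene is represented by its window of highest mean density.

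The samples are primary culture neurons of CD1 mice, with DMSO as vehicle or with U0126, which blocks MEK1 and MEK2, the kinases that activate ERK. In each arm, chromatin immunoprecipitation with an antibody to Pol II was followed by sequencing in unstimulated neurons (1 h and 6 h), and after 1, 10, 30, 60, 180 and 360 min of neuronal activity. The labels do not name the stimulus. There are 31 Pol II libraries in 16 groups, with 2 libraries each except U0126 at 180 min, of which there is 1. Whether the libraries of a group came from separate cultures is not stated in the labels, and p-values therefore measure only how these libraries vary, which may be technical.

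SR proteins carry RNA recognition motifs and a domain rich in arginine and serine, bind exonic enhancers and mostly promote exon inclusion. The hnRNP proteins coat nascent transcripts and often oppose SR proteins by silencing exons, and several also act in RNA export, localization and decay. Rbfox, Nova, Celf and Ptbp proteins act more selectively, and Rbfox and Nova proteins promote neuronal exon patterns. Ptbp1 represses neuronal exons outside neurons, a role that Ptbp2 takes over in part as neurons differentiate. In neurons, splicing of many receptor and channel transcripts depends on activity. A TSS density reports polymerase at the start of the gene, not mature RNA or protein, and a change in the mix of cells cannot be told apart from a change in density per cell.

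The members' windows carry much Pol II. The unit is the authors' normalized Pol II density, in which the control TSSs have a median near 1 in every library (0.998 to 1.02). The median of the 45 mean densities was 1.68, beside 0.968 over the 12097 genes that passed the filter on low values. That filter kept genes with a mean density of at least 0.301, and all 45 members passed it. Of the 45 members, 26 lie in the upper 10 percent of all symbols, 18 in the upper 5 percent and 8 in the upper 1 percent. In the window used, no member is listed at 0 in any library. A further window of Celf5 and a further window of Rbfox3 are at 0 in their lowest library.

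The families are ordered by density. The Srsf median was 2.11 and the Hnrnp median 1.98, followed by 0.957 for Ptbp, 0.711 for Celf, 0.550 for Nova and 0.419 for Rbfox. Srsf7 had the highest mean density of all members at 7.14, with single libraries between 5.21 and 11.3. Srsf7 and Srsf3 are SR proteins that also help to export mRNA. Srsf2 followed at 5.79, Hnrnpa2b1, which binds localization signals of dendritic mRNAs, at 4.41, and Srsf3 at 4.38. Ptbp1 had a mean density of 2.10, above the 0.846 of its neuronal relative Ptbp2. In this order these neighbours overlap between libraries; Srsf2, for example, ranged from 3.67 to 11.1 and Hnrnpa2b1 from 3.00 to 6.55. At the low end were Rbfox3, whose protein is the neuronal marker NeuN, at 0.419, Srsf12 at 0.362 and Rbfox1 at 0.311, the last just above the filter.

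**Figure D1:**
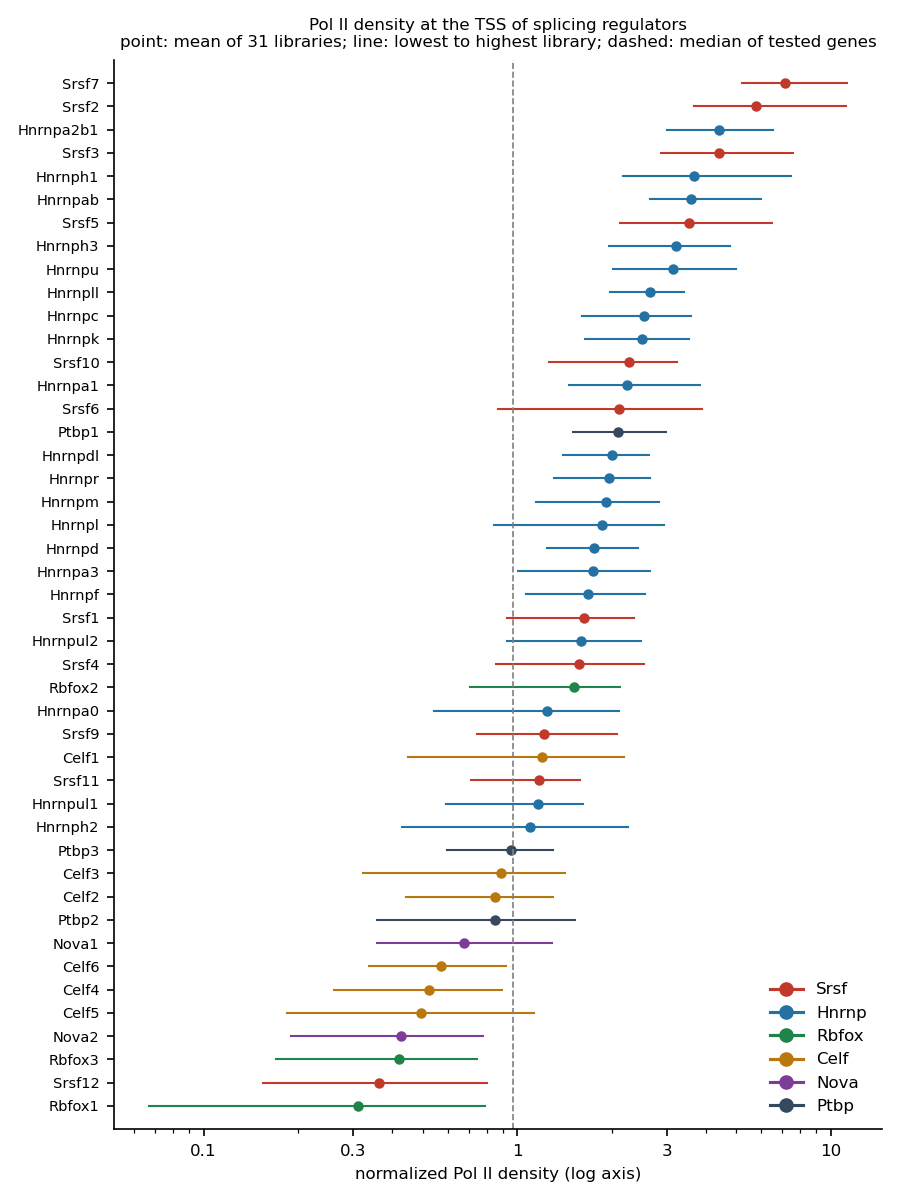
Mean normalized Pol II density over 31 libraries (points) with the lowest and highest library (lines) for the 45 members on a log axis, coloured by family. Srsf7 at 7.14 is highest and Rbfox1 at 0.311 lowest, and most Srsf and Hnrnp genes lie to the right of the dashed median of tested genes at 0.968.

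The cultures carried the marks of neurons, with other cell types also represented. Of 12 neuron markers, 10 passed the filter, led by Tubb3 with a mean density of 5.15. Of 8 astrocyte and 8 oligodendrocyte lineage markers, 4 each passed, led by Sox9 (2.54) and Olig2 (1.15), while Gfap and Aqp4 did not, nor did the glutamate transporter genes Slc17a6 and Slc17a7 among the neuron markers. None of 8 microglia or of 8 endothelial and fibroblast markers passed. Summed over each list, density ranged between libraries from 11.1 to 18.9 for neuron, 3.92 to 6.64 for astrocyte and 2.64 to 5.04 for oligodendrocyte lineage markers. The part of cell mix in the results was not tested. The libraries differ in spread: 0.723% to 11.5% of windows are at 0, most in replicate 1 of vehicle at 30 min, and the ratio of the upper to the lower quartile runs from 4.42 to 18.5, highest in replicate 1 of U0126 at 30 min. Replicates correlate over tested genes with r between 0.750 and 0.860. No read counts are given, so depth is unknown.

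The promoters of 4 members are printed because these genes carry the results that follow: Srsf3, Hnrnpab and Srsf5 are the members that passed the test for activity, and Srsf7 has the most Pol II. The sequences are from RefSeq (build GRCm38.p6), 300 bases around an annotated start, most of them upstream of it, written 5′ to 3′ in the direction of the gene. The Pol II windows are in build mm9 and their coordinates were not converted, so window and promoter are matched by gene symbol only. Capitals mark matches, on either strand, to the motifs listed after the sequences.
Srsf3, chr17:29032410-29032709, plus strand: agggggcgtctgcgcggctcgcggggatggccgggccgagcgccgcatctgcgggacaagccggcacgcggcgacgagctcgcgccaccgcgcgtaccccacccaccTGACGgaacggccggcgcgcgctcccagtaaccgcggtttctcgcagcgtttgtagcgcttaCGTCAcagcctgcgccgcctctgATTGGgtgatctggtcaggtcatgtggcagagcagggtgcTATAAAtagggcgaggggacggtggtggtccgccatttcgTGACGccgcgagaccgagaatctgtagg
Srsf5, chr12:80945249-80945548, plus strand: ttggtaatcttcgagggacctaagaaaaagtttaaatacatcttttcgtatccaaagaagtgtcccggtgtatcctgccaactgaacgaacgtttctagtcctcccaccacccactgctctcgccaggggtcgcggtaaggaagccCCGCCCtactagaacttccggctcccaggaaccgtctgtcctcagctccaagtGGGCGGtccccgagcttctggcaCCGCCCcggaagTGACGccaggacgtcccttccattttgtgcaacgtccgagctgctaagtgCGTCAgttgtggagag
Hnrnpab, chr11:51606832-51607131, minus strand: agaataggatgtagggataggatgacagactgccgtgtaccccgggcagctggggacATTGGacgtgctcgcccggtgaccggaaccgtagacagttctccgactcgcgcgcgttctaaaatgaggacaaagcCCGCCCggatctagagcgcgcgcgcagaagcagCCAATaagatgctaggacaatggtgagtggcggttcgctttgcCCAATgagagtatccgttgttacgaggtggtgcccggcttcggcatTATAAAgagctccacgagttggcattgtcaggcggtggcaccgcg
Srsf7, chr17:80207256-80207555, minus strand: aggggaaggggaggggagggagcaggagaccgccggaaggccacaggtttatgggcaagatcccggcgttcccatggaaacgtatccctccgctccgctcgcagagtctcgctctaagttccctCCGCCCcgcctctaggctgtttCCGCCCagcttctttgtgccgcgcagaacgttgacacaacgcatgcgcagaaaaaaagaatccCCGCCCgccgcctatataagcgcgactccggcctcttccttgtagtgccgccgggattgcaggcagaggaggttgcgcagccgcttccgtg
The deposited mm9 windows of these genes are chr17:29169304-29169904 for Srsf3, chr12:82046190-82046790 for Srsf5, chr11:51420083-51420683 for Hnrnpab and chr17:80606345-80606945 for Srsf7.

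The motifs searched were the cAMP response element (CRE, TGACGTCA) and its core TGACG. The GC box was searched as GGGCGG and the TATA box was searched as TATAAA. Further motifs were the CCAAT box, searched by that word, and the NRF1 motif. All were searched on both strands. Every full CRE also counts as a core. The table holds 68 promoters for 40 of the 45 members, some of them overlapping, and none for Celf4, Hnrnpll, Hnrnpul2, Ptbp3 and Rbfox2. The Srsf3 promoter holds 3 CRE cores, 1 TATA box and 1 CCAAT box. The Srsf5 promoter holds 2 CRE cores and 3 GC boxes, Hnrnpab 3 CCAAT boxes with 1 TATA box and 1 GC box, and Srsf7 3 GC boxes. The full CRE was found in 4 member promoters, 3 overlapping ones of Celf3 and 1 of Celf6, and in 0 of 14 Srsf and 0 of 27 Hnrnp promoters. It is present in 3.52% of promoters of tested genes. The core was present in 44.1% of member promoters, beside 32.4% for tested genes and 20.8% for all promoters, and the GC box in 69.1%, beside 64.9% and 35.7%. GC content differs in the same direction, with a median of 63.5% for members, 61.7% for tested genes and 52.7% for all promoters. These letter matches are descriptions of the windows and say nothing of whether a factor binds.

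How the members respond to activity in vehicle was the first question. Srsf3 and Hnrnpab rose at 30 min, and Srsf3 also rose over the mean of 10, 30 and 60 min; no member was called lower, and none was called at 1, 10, 60, 180 or 360 min. Changes were tested with limma on log2 of density plus a pseudocount of 0.148, after centring each library on its median, and a change was called at a Benjamini-Hochberg adjusted p under 0.05 over all 12097 genes. The pseudocount makes the log2 change of a low gene smaller than its ratio of densities. At 30 min, 2 of 45 members were called higher and 0 lower, where 1.24% of all tested genes were called higher and 0.182% lower. For the mean of 10, 30 and 60 min, 1 member was called higher, against 1.01% of all genes, and 0 lower, against 0.0579%. All 45 members belong to the TSSs that the authors marked as neither control nor rapidly or later activity-regulated.

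Srsf3 in vehicle had densities of 2.94 and 3.70 when unstimulated for 1 h, 4.21 and 5.30 at 10 min, 7.56 and 5.39 at 30 min, and 5.78 and 5.10 at 60 min. Every library from 10 to 60 min was above both unstimulated ones, with the highest density at 30 min in replicate 1. The group mean went from 3.32 ± 0.539 (SD, n = 2) to 6.47 ± 1.53 at 30 min. On the log2 scale the difference at 30 min was 0.90 (SE 0.214, limma adjusted p = 0.0284), and over the mean of 10, 30 and 60 min 0.68 (SE 0.175, limma adjusted p = 0.0432). At 180 and 360 min, Srsf3 had 4.13 and 4.87, then 3.94 and 4.08, beside 2.96 and 3.56 in unstimulated neurons of 6 h. These later values lie between the unstimulated and the 30 min levels.

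Hnrnpab, an hnRNP that takes part in mRNA transport in neurons, had 2.93 and 2.64 when unstimulated for 1 h, 3.99 and 3.63 at 10 min, 5.99 and 4.25 at 30 min, and 4.14 and 4.01 at 60 min. The groups did not overlap at any of these times. The mean at 30 min was 5.12 ± 1.23 (SD, n = 2) against 2.78 ± 0.200, a log2 difference of 0.80 (SE 0.200, limma adjusted p = 0.0378). At 180 min it was at 3.36 and 3.43, and its unstimulated 6 h libraries at 3.90 and 3.23.

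These calls rest on single libraries. Without replicate 1 of vehicle at 30 min, the library with the most windows at 0, the 30 min difference was 0.66 for Srsf3 (limma adjusted p = 0.589) and 0.56 for Hnrnpab (adjusted p = 0.648), and no member was called. Without replicate 1 of unstimulated vehicle at 1 h, no member was called either (adjusted p = 0.393 and 0.264), and without its replicate 2 only Srsf3 was. Without replicate 2 of vehicle at 30 min, 8 members were called, namely Hnrnpa2b1, Hnrnpab, Hnrnph1, Hnrnph2, Srsf2, Srsf3, Srsf5 and Srsf7; that fit called 578 of all genes, 382 of them higher, against 150 higher and 22 lower with all libraries. The call for Srsf3 over the mean of the 3 times held in 1 of 8 fits that left out 1 library, that without replicate 2 of vehicle at 30 min, with differences from 0.52 to 0.84 over the 8 fits.

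**Figure D2:**
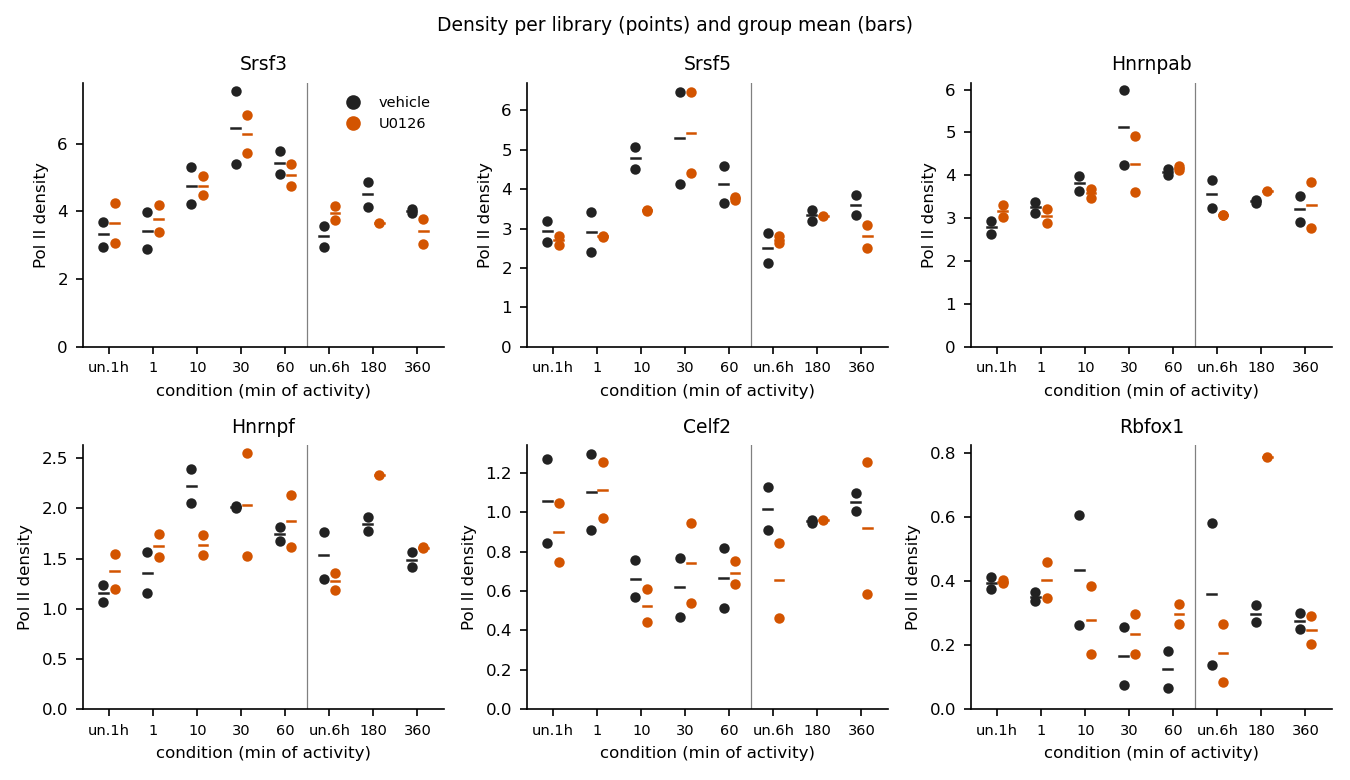
Normalized Pol II density per library (points) and group mean (bars) for 6 members, in vehicle (black) and U0126 (orange), at each time in min with the unstimulated groups of 1 h and 6 h (un.1h, un.6h). The group means of Srsf3, Srsf5 and Hnrnpab are highest at 30 min, where Srsf3 reaches 7.56 in replicate 1 of vehicle. In replicate 2 of vehicle, Srsf5 is highest at 10 min, at 5.08 against 4.13 at 30 min. Celf2 has low values from 10 to 60 min in vehicle, and Rbfox1 at 30 and 60 min.

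Below the threshold, most Srsf and Hnrnp genes had positive differences. Over the mean of 10, 30 and 60 min in vehicle, the log2 difference was above 0 for 20 of 20 Hnrnp genes (median 0.47) and 10 of 11 Srsf genes (median 0.41), and for 35 of all 45 members (median 0.35). Over all 12097 genes, 6323 were above 0 and the median was 0.02. By time, the median over members was 0.09 after 1 min, and then 0.34, 0.37 and 0.28 after 10, 30 and 60 min. Against the unstimulated 6 h group it was 0.11 after 180 min and 0.03 after 360 min. At an unadjusted p under 0.05, 18 members were higher and 1 lower over the mean of the 3 times, beside 9.74% and 4.78% of all genes. At 10 min, limma called 0 members, beside 0.182% of genes higher and 0.00827% lower, and 16 were higher and 0 lower at an unadjusted p under 0.05, beside 6.72% and 2.88%. At 30 min, 14 were higher and 2 lower at an unadjusted p under 0.05, beside 9.21% and 5.49%. At 60 min it also called 0, beside 0.157% of genes higher, and 7 were higher and 1 lower at an unadjusted p under 0.05, beside 6.42% and 4.24%. The counts at single times share their unstimulated libraries, so they are not separate evidence.

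The same pattern is visible library by library. In 16 of 45 members (35.6%), all 6 vehicle libraries of 10, 30 and 60 min were above both unstimulated 1 h libraries on the centred log2 scale, beside 9.62% of all genes. These were 11 Hnrnp genes, Srsf2, Srsf3, Srsf5, Srsf7 and Ptbp1. In 2 members, Celf2 and Ptbp3, all 6 were below, beside 5.51% of all genes; for Ptbp3, 1 library of 60 min has a deposited density of 0.943, above the 0.913 of an unstimulated one, before centring. The ratio of the median density of the members to that of all tested genes was 1.51 and 1.61 in the unstimulated 1 h vehicle libraries. It was 2.15 and 2.11 at 10 min, 1.91 and 1.92 at 30 min, and 1.63 and 2.05 at 60 min. These stimulated libraries were all above those unstimulated ones, by little in 1 library of 60 min. The vehicle libraries of 1 min were at 1.76 and 1.72 and the unstimulated 1 h U0126 libraries at 1.65 and 1.77, all above that library of 60 min. The unstimulated 6 h vehicle libraries were at 1.47 and 1.57.

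**Figure D3:**
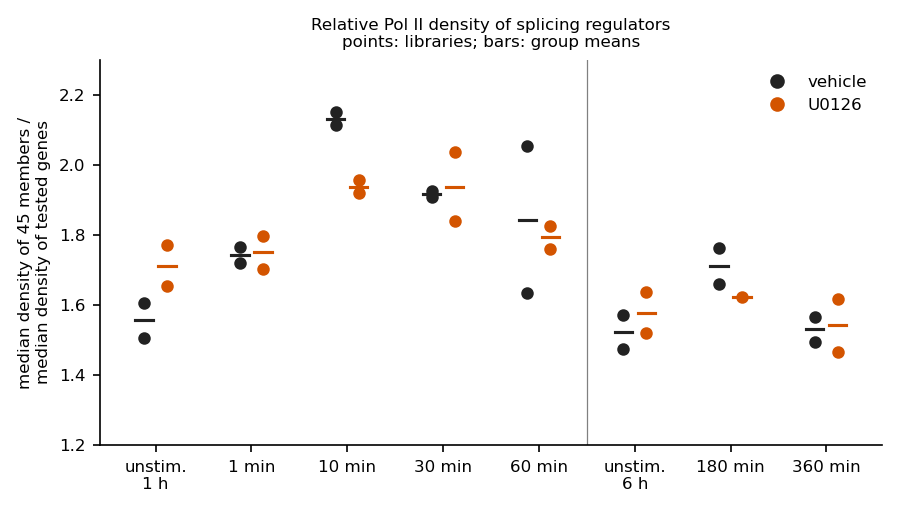
Ratio of the median density of the 45 members to the median density of all tested genes, per library (points) with group means (bars), in vehicle (black) and U0126 (orange); the vertical axis starts at 1.2. The vehicle libraries at 10 min, at 2.15 and 2.11, are highest, and the U0126 libraries at the same time are at 1.92 and 1.96.

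The size of the response moved with density, among members and among all genes. Across the 45 members, Spearman's rho between mean density and the log2 difference over the mean of 10, 30 and 60 min was 0.638, and across all 12097 genes it was 0.417; genes are not independent replicates, share libraries and enter both axes with the same values. The 27 members in the upper 25 percent of tested genes by density (at least 1.42) had a median of 0.46, with 26 above 0. The 18 below it had a median of 0.00, with 9 above 0. All 3025 genes of the upper 25 percent had a median of 0.22. In that density class, 14 of 27 members (51.9%) had all 6 stimulated libraries above both unstimulated ones, beside 23.4% of the genes.

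Part of this depends on the scaling of the libraries. Quantile normalization gives every library the same distribution of values, and it lowered the members' median to 0.10 (33 of 45 above 0), the Hnrnp median to 0.11 and the Srsf median to 0.17, while the genes of the upper 25 percent went to 0.01. Under it, the members with all 6 stimulated libraries above were 5 of 45 (11.1%), namely Celf6, Hnrnpd, Hnrnpf, Hnrnph2 and Hnrnpul1, beside 6.89% of all genes; in the upper 25 percent by density they were 2 of 27 (7.41%), beside 9.12% of the genes there. Under it no member was called at any time; the difference at 30 min was then 0.27 for Srsf3 and 0.21 for Hnrnpab. Cyclic loess, which removes trends of difference with density, gave a median of 0.11, and Srsf7 changed sign under it, from 0.41 to -0.20. A rise at dense TSSs and a wider spread of values in the stimulated libraries cannot be told apart here.

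**Figure D4:**
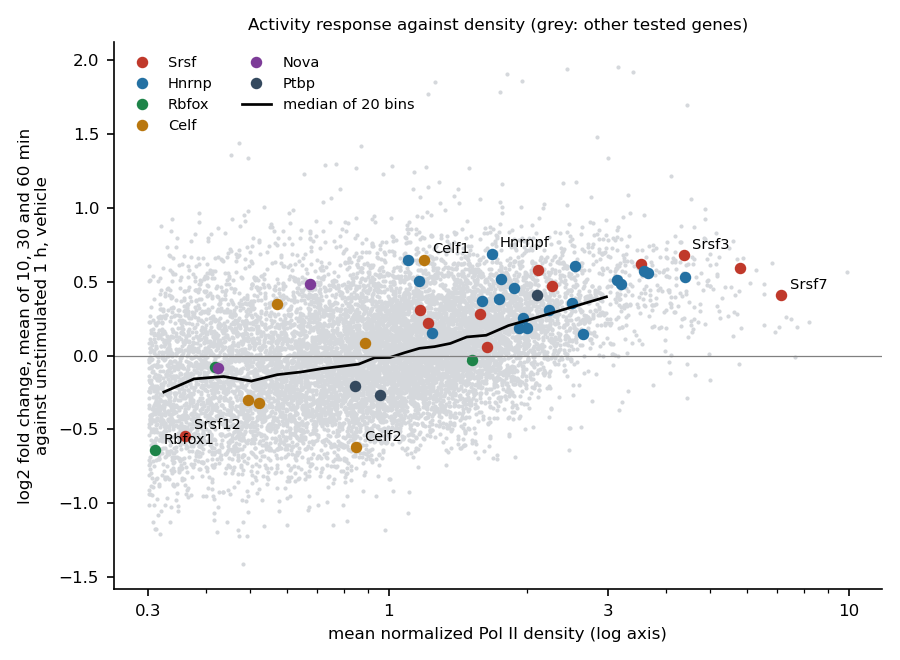
Log2 difference over the mean of 10, 30 and 60 min in vehicle against mean normalized Pol II density (log axis) for members, coloured by family, and for all other tested genes (grey), with the median in 20 density bins (black line). Most members with densities over 1.42 lie above 0, as do most genes there, and the low-density Rbfox1, Srsf12 and Celf2 lie below 0; the values are from libraries centred on their median.

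Among the other SR proteins, Srsf5, Srsf2, Srsf6 and Srsf10 had mean differences of 0.62, 0.59, 0.58 and 0.47, and the densest, Srsf7, of 0.41. Srsf7 had 6.08 and 6.52 when unstimulated for 1 h in vehicle, 8.51 and 8.45 at 10 min, 11.3 and 7.88 at 30 min, and 8.84 and 6.99 at 60 min (mean difference 0.41, SE 0.155, limma adjusted p = 0.197). Srsf2, a nuclear SR protein that marks splicing speckles, had 4.69 and 4.65, then 6.93 and 6.78, 11.1 and 6.52, and 7.51 and 5.63, and at 30 min its limma adjusted p was 0.0501. Srsf5 had 2.67 and 3.21 when unstimulated, and 4.51 and 5.08, 6.48 and 4.13, and 4.59 and 3.65 at the 3 times (mean difference 0.62, SE 0.178, limma adjusted p = 0.0743). For Srsf7, Srsf2 and Srsf5, every stimulated library shown was above both unstimulated ones. On the centred log2 scale this held for 9.62% of all genes and 23.4% of genes with densities of at least 1.42. Srsf6 and Srsf10 overlapped at 60 min, with 1.54 in replicate 2 against an unstimulated 1.55, and 2.05 in replicate 1 against 2.15. None of these genes passed the test in vehicle. The window of Srsf5 is overlapped by that of Gm20337, and the density cannot be assigned to one of them. Srsf1, the founding SR protein, was at 0.06 (SE 0.243), and Srsf12 had the lowest value of the family, -0.54 (SE 0.307, limma adjusted p = 0.429), from 0.799 and 0.285 unstimulated to 0.289 and 0.253 at 30 min. Its unstimulated libraries are far apart.

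Among the hnRNPs, Hnrnpf, which binds runs of G, had the largest mean difference at 0.69 (SE 0.187, limma adjusted p = 0.0586). It was at 1.07 and 1.24 when unstimulated for 1 h, at 2.39 and 2.06 at 10 min, 2.00 and 2.02 at 30 min, and 1.82 and 1.67 at 60 min. Its groups were well apart from the first of these times, and the 10 min difference of 0.85 had a limma adjusted p of 0.141. Its relative Hnrnph2 was at 0.808 in both unstimulated libraries and reached 2.25 and 1.41 at 30 min, a difference of 0.99 (SE 0.294, limma adjusted p = 0.0794), the largest of any member at that time; its window is overlapped by that of Gla. Hnrnpa2b1 was at 3.71 and 3.85 when unstimulated, then at 6.53 and 5.70, 6.55 and 5.19, and 5.16 and 4.91, a mean difference of 0.53 (SE 0.152, limma adjusted p = 0.0711). Hnrnpc, which binds runs of U, had a 30 min difference of 0.77 (SE 0.213, limma adjusted p = 0.0602). At the lower end of the family, Hnrnpll and Hnrnpa0 had mean differences of 0.15 and 0.16.

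The Celf, Rbfox, Nova and Ptbp genes had values in both directions. Of 6 Celf genes, which bind GU-rich RNA, 3 were above 0 over the mean of 10, 30 and 60 min, and the family median was -0.11. Celf1 was at 0.590 and 0.982 when unstimulated for 1 h and at 2.14 and 1.03 at 10 min, 1.44 and 1.18 at 30 min, and 1.49 and 0.873 at 60 min, a mean difference of 0.65 (SE 0.320, limma adjusted p = 0.344). Its replicates differ as much as its groups. Celf2 ran the other way, from 1.27 and 0.846 to 0.572 and 0.755, 0.770 and 0.467, and 0.817 and 0.515, a mean difference of -0.62 (SE 0.272, limma adjusted p = 0.277). All 6 of these stimulated libraries were below both unstimulated ones, also after quantile normalization. Celf4 and Celf5 had mean differences of -0.32 (SE 0.314) and -0.30 (SE 0.331).

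Rbfox1 had the lowest value of all members, -0.64 (SE 0.346, limma adjusted p = 0.400). It was at 0.376 and 0.413 when unstimulated for 1 h, at 0.263 and 0.605 at 10 min, at 0.0738 and 0.256 at 30 min, and at 0.0669 and 0.180 at 60 min. The libraries of 30 and 60 min were below the unstimulated ones, with log2 differences of -0.88 (SE 0.423, limma adjusted p = 0.324) and -1.06 (SE 0.423, adjusted p = 0.369), but these densities are low. Rbfox2, the densest of the family, was at -0.03 (SE 0.242), and Rbfox3 at -0.08 (SE 0.302). Nova1 had a mean difference of 0.49 (SE 0.313, limma adjusted p = 0.499) and Nova2 -0.08 (SE 0.302). Neither passed the test.

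The Ptbp genes split. Ptbp1 was at 1.74 and 1.85 when unstimulated for 1 h and at 1.89 and 2.57, 2.84 and 2.98, and 2.06 and 2.67 at the 3 times, a mean difference of 0.41 (SE 0.191, limma adjusted p = 0.311). Ptbp2 had -0.21 (SE 0.311) and Ptbp3 -0.27 (SE 0.213, limma adjusted p = 0.601). None of these passed the test, and the window of Ptbp1 is overlapped by that of E130317F20Rik.

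At 1 min the highest and lowest members were Celf1 at 0.79 (SE 0.392) and Celf4 at -0.66 (SE 0.385). At 180 min they were Celf1 at 0.62 (SE 0.392) and Celf5 at -0.90 (SE 0.405), and at 360 min Hnrnph3 at 0.48 (SE 0.203) and Celf3 at -0.77 (SE 0.333). Limma called 0 members at these 3 times and 0% of all genes. At an unadjusted p under 0.05, 2 members were higher and 0 lower at 1 min (1.97% and 1.46% of genes), 1 and 1 at 180 min (2.80% and 2.09%), and 2 and 1 at 360 min (1.83% and 1.27%).

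Of the 45 members, 11 have more than 1 TSS window, and 4 of them are described here. Hnrnpf has 4 windows, and 3 of them had higher mean densities at 10 min than when unstimulated, at 2.22 ± 0.237 against 1.15 ± 0.122 (SD, n = 2) in the window used, 0.759 ± 0.178 against 0.486 ± 0.051, and 0.957 ± 0.345 against 0.352 ± 0.072; the remaining window was at 0.233 and 0.237. Hnrnpk, which binds C-rich RNA, had 3.19 ± 0.479 against 2.29 ± 0.147 in its main window and 0.568 ± 0.204 against 0.612 ± 0.014 in its weakest one. The main window of Hnrnpk is overlapped by that of Rmi1. For 8 of the 45 members, the window used is overlapped by that of another symbol. For Celf2, all 5 windows had a lower mean at 30 min than when unstimulated, from 1.06 ± 0.30 to 0.619 ± 0.215 in the window used and from 0.520 to 0.306, 0.570 to 0.257, 0.510 to 0.128 and 0.351 to 0.288 in the others. The windows at 0.570 and 0.510 overlap each other. The second Rbfox1 window, under the filter on low values, was at 0.166 ± 0.0067 when unstimulated, 0.328 ± 0.027 at 10 min and 0.216 ± 0.029 at 30 min, higher at 30 min where the window used was lower. At 60 min this second Rbfox1 window was at 0.148 ± 0.063, and the window used at 0.124 ± 0.080 against 0.394 ± 0.026 when unstimulated. The windows of one gene come from the same libraries and are not replicates.

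What MEK inhibition changed was the second question. In U0126, Srsf5 rose at 30 min, and no other member was called in that arm. Srsf5 in U0126 was at 2.81 and 2.60 when unstimulated for 1 h, at 3.47 and 3.45 at 10 min, at 6.46 and 4.41 at 30 min, and at 3.73 and 3.80 at 60 min. Each stimulated library was above both unstimulated ones, and the 30 min difference was 0.93 (SE 0.218, limma adjusted p = 0.0488). Here 0.405% of all genes were called higher and 0.0331% lower; at an unadjusted p under 0.05, 13 members were higher, beside 7.87% of genes, and 0 lower. The call was lost without replicate 1 of U0126 at 30 min (0.68, adjusted p = 0.747), without replicate 1 of unstimulated U0126 (0.98, adjusted p = 0.450) or without its replicate 2 (0.87, adjusted p = 0.222). In vehicle the same difference was 0.77 with a limma adjusted p of 0.0671, so the call in one arm and not in the other does not separate the arms.

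Srsf3 and Hnrnpab had positive differences in U0126 as well. Srsf3 was at 3.05 and 4.26 when unstimulated for 1 h in U0126 and at 4.47 and 5.05, 6.84 and 5.73, and 5.40 and 4.75 at 10, 30 and 60 min, a mean difference of 0.51 (SE 0.175, limma adjusted p = 0.221). Hnrnpab was at 3.31 and 3.03, then at 3.69 and 3.48, 4.93 and 3.61, and 4.21 and 4.13, a mean difference of 0.29 (SE 0.163, limma adjusted p = 0.589). All stimulated libraries of both genes were above both unstimulated ones. The largest mean differences in U0126 were 0.62 for Hnrnpl, which binds CA repeats (SE 0.209, limma adjusted p = 0.216), and -0.53 for Rbfox3 (SE 0.302, adjusted p = 0.586). Hnrnpl was at 0.842 and 1.98 in the unstimulated 1 h U0126 libraries and at 2.31 and 2.16, 2.61 and 2.23, and 1.60 and 1.98 at the 3 times; its difference was 0.067 without replicate 1 of the unstimulated group and 1.17 without replicate 2 (adjusted p = 0.0349). At single times the extremes in U0126 were Hnrnph2 at 0.82 (SE 0.294) and Celf2 at -0.64 (SE 0.334) at 10 min, Srsf12 at -0.72 (SE 0.376) below Srsf5 at 30 min, and Srsf2 at 0.57 (SE 0.221) and Rbfox3 at -0.45 (SE 0.369) at 60 min. Limma called 0 members at 10 min, 60 min and over the mean, beside 0.0165%, 0.116% and 0.347% of genes higher; at an unadjusted p under 0.05, 7, 3 and 12 members were higher, beside 4.65%, 4.86% and 7.47% of genes, and 0 lower, beside 1.68%, 3.05% and 2.67%. Over all members the median was 0.18 (33 of 45 above 0), beside 0.03 for all genes. The 27 members in the upper 25 percent by density had a median of 0.28 (24 above 0), beside 0.18 for the genes there. In 12 of 45 members (26.7%), all 6 U0126 libraries of 10, 30 and 60 min were above both unstimulated U0126 ones, beside 8.43% of all genes, and in 1, Rbfox1, all were below, beside 3.84%. After quantile normalization 4 members (8.89%) had all 6 above, beside 5.86% of genes, and 2 had all 6 below, Hnrnpll and Hnrnph1, of which Hnrnph1 was among the 12 before.

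Compared directly, no member passed the test between U0126 and vehicle at any time. Over the mean of 10, 30 and 60 min, limma called 0 of 45, where 0% of genes were called higher and 0.0165% lower. At an unadjusted p under 0.05, 0 members were higher and 0 lower, beside 1.26% and 1.71% of genes. The median of the members over these times was -0.08, with 31 of 45 below 0, beside -0.01 for all genes. The 27 members in the upper 25 percent by density had a median of -0.09 (3 above 0), beside -0.04 for the genes there. The test of whether the activity response itself differed between the arms called 0 members and 0% of all genes, and the median of its differences was -0.12 for members and 0.01 for all genes. At an unadjusted p under 0.05, that test had 1 member lower, Hnrnpd, which acts in mRNA decay, at -0.51 (SE 0.238), and 0 higher, beside 1.11% of genes lower and 1.33% higher. Hnrnpd was at 1.36 and 1.25 in the unstimulated 1 h vehicle libraries and at 1.70 and 1.86 in those of U0126. The extremes of the test were Celf1 at -0.69 (SE 0.453) and Ptbp2 at 0.40 (SE 0.440). For the called genes the test between arms gave -0.17 for Srsf3 (95% interval -0.67 to 0.33), -0.29 for Hnrnpab (-0.76 to 0.18) and -0.07 for Srsf5 (-0.58 to 0.44). These intervals include 0, and that of Srsf3 reaches down to -0.67, close to the size of its vehicle response of 0.68.

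By time, 14 of 45 members (31.1%) had both U0126 libraries below both vehicle libraries at 10 min on the centred log2 scale, beside 16.0% of all genes, and 3 (6.67%) had both above, beside 12.8%. At 30 min these counts were 4 below and 3 above, with 12.4% and 11.7% of genes, and at 60 min 11 below and 4 above, with 14.6% and 13.9%. At 360 min they were 14 below and 2 above, with 14.1% and 13.3%. Srsf5 at 10 min was at 3.47 and 3.45 in U0126 and at 4.51 and 5.08 in vehicle, a difference that is not maintained at 30 min, when it was at 6.46 and 4.41 against 6.48 and 4.13. Hnrnpf at 10 min was at 1.54 and 1.74 against 2.39 and 2.06. After quantile normalization, 10 of 45 members were below at 10 min, beside 14.3% of genes. The members in the upper 25 percent by density had 11 of 27 below (40.7%, beside 18.0% of genes there) before quantile normalization and 7 (25.9%, beside 13.1%) after it.

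The members with the most positive U0126 difference over the mean of 10, 30 and 60 min were Ptbp2, Celf5, Rbfox1, Srsf10 and Ptbp3, and those with the most negative were Srsf11, Srsf6, Nova1, Hnrnpr and Celf1. Ptbp2 was highest at 0.40 (SE 0.220, limma adjusted p = 0.999), with 1.52 and 0.731 in U0126 against 1.27 and 0.659 in vehicle at 10 min, 1.11 and 0.924 against 0.358 and 0.987 at 30 min, and 1.29 and 0.791 against 0.937 and 0.578 at 60 min. Its groups overlap at each time. Srsf10, which represses splicing when dephosphorylated, followed the same sign at 0.19 (SE 0.130), Celf5 was at 0.27 (SE 0.234), Rbfox1 at 0.21 (SE 0.244) and Ptbp3 at 0.19 (SE 0.150). Srsf11 was lowest at -0.31 (SE 0.154), with 1.25 and 1.11 against 1.54 and 1.2 at 10 min. It had 0.877 and 1.11 against 1.03 and 1.58 at 30 min, and 0.715 and 1.43 against 1.34 and 1.49 at 60 min. The window used for Srsf11 is overlapped by that of Lrrc40. A further Srsf11 window over the filter hardly differed between the arms at 30 min. It was at 1.07 ± 0.0719 in U0126 and 1.08 ± 0.0337 in vehicle (SD, n = 2). The negative difference of Srsf11 is therefore that of the window used. Srsf6 was at -0.28 (SE 0.267), Nova1 at -0.27 (SE 0.221), Hnrnpr at -0.20 (SE 0.140) and Celf1 at -0.20 (SE 0.226). None of these passed the test.

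In unstimulated neurons, U0126 gave no call among members or genes (0% higher and 0% lower at 1 h and at 6 h). At an unadjusted p under 0.05, 0 members were higher or lower at 1 h, beside 1.14% and 1.24% of genes, and 1 higher and 1 lower at 6 h, beside 0.984% and 1.21%. The extremes were Rbfox3 at 0.52 (SE 0.369) and Celf3 at -0.47 (SE 0.333) at 1 h, and Nova2 at 0.82 (SE 0.369) and Celf5 at -0.61 (SE 0.405) at 6 h. With 1 library left out, Celf3 ranged from -0.92 to -0.0096 and Celf5 from -1.22 to -0.0015. At 10 min they were Hnrnpa0 at 0.61 (SE 0.426) and Srsf6, a regulator of exon inclusion, at -0.77 (SE 0.463), with 2.37 and 1.10 against 3.65 and 2.28 in vehicle. At 30 min they were Ptbp2 at 0.63 (SE 0.381) and Celf1 at -0.40 (SE 0.392), and at 60 min Rbfox1 at 0.72 (SE 0.423) and Nova1 at -0.44 (SE 0.383). At 180 min they were Nova2 at 1.28 (SE 0.452) and Celf3 at -0.63 (SE 0.408); the U0126 group of 180 min has 1 library, in which Nova2 was at 0.775 against 0.215 and 0.245 in vehicle. The spread of that lone library was taken from the other groups. At 1 min the extremes were Celf4 at 0.52 (SE 0.385) and Celf6 at -0.39 (SE 0.355; -0.76 to -0.015 with 1 library left out), and at 360 min Rbfox3 at 0.75 (SE 0.369) and Hnrnpa3 at -0.39 (SE 0.234). The window of Hnrnpa3 is overlapped by that of Gm6793. The densest member, Srsf7, differed by -0.02 (SE 0.110) over the mean of 10, 30 and 60 min, and Hnrnpa2b1 by -0.07 (SE 0.107).

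**Figure D5:**
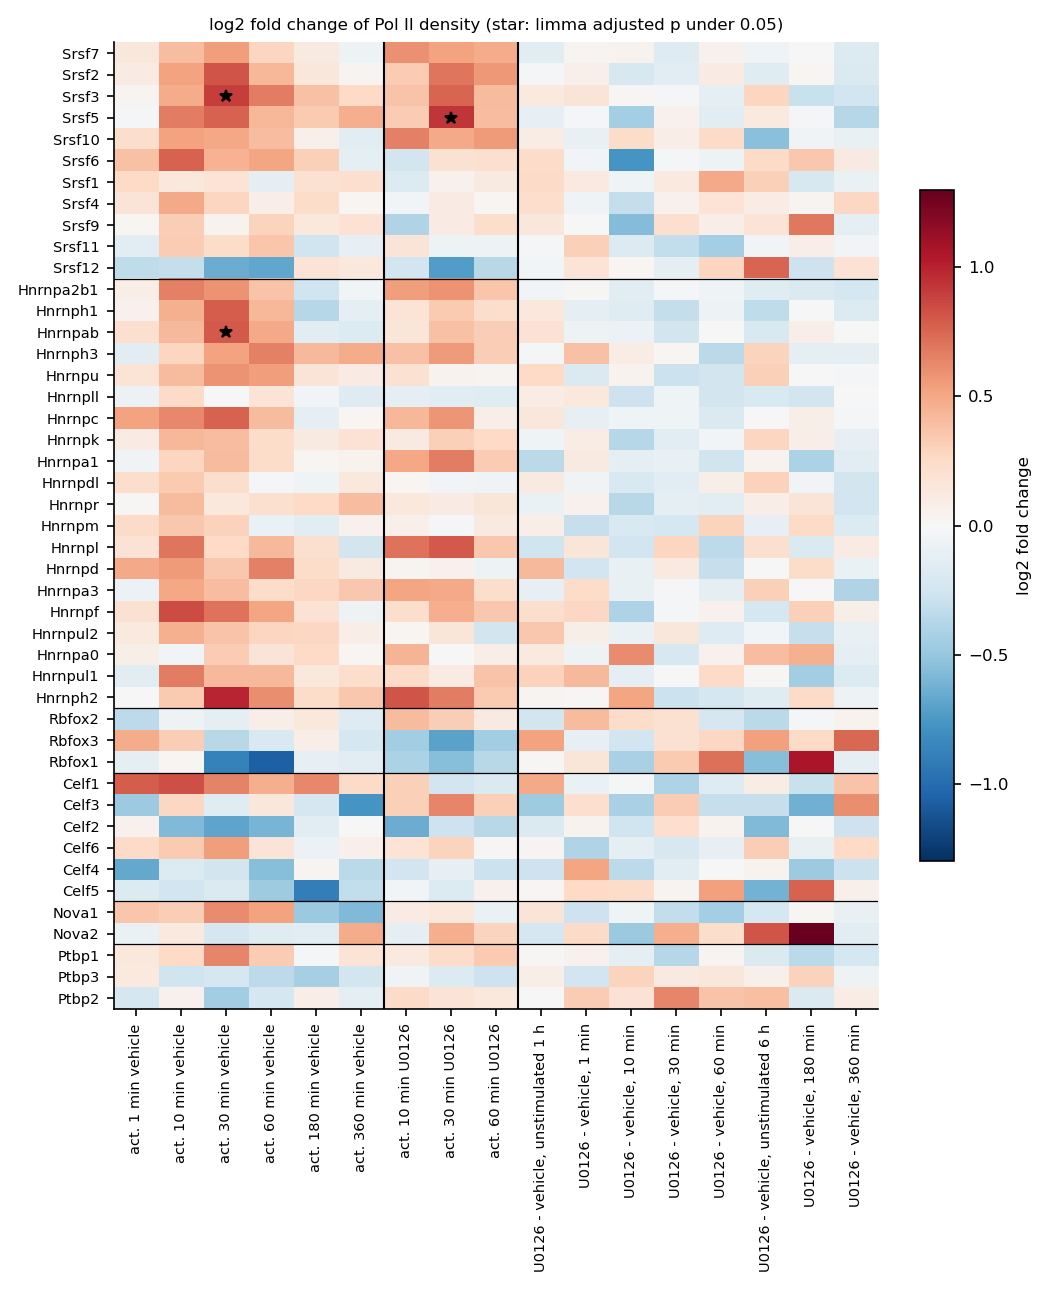
Log2 differences for the 45 members (rows, by family and density) in 17 comparisons: activity in vehicle, activity in U0126 and U0126 minus vehicle, with stars for an adjusted p under 0.05. The 3 stars are Srsf3 and Hnrnpab at 30 min in vehicle and Srsf5 at 30 min in U0126; the right block has none.

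Other genes of the splicing machinery were taken from lists that were chosen with earlier results of these data known. Over the mean of 10, 30 and 60 min in vehicle, 39 of 46 tested other splicing regulators were above 0, with a list median of 0.35. Of 50 core spliceosome genes, 1 was called, Sf1, which binds the branch point, at 0.73 (SE 0.182, limma adjusted p = 0.0389), and the list median was 0.22. Of 9 tested kinases of SR proteins, 0 were called over this mean, and Clk4, which phosphorylates SR proteins, was called at 30 min, at 0.84 (SE 0.224, limma adjusted p = 0.0477). Of all genes, 1.24% were called higher at 30 min. In the difference between U0126 and vehicle over these times, 0 genes of these 3 lists were called, beside 0% of all genes higher and 0.0165% lower. The 12 activity reference genes had a list median of 1.57 in vehicle, with 9 called, beside which the members' median of 0.35 is small; Egr1 was at 2.37 at 10 min and Fos at 1.99 at 30 min. Of these 12, 1 was called lower in U0126 than in vehicle at 10 min, beside 0.00827% of all genes. It was Egr1, at -1.49 (SE 0.261, limma adjusted p = 0.0274).

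For H3K27ac, a mark of active enhancers, 16 libraries were deposited as values over 940 regions, each with a nearest gene. None of the 940 regions in either replicate sheet has a member as its nearest gene, so the members have no H3K27ac value here.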

How the data were processed

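Per the submitters' processing notes, Bowtie2, SAMtools, bedtools and the build mm9 were used; their versions are not given in these sources. The deposited Pol II values are a normalized signal per TSS window, which the authors named normalized density and scaled with control TSSs, per the file headers. The deposited H3K27ac tables give each region's nearest gene and its distance, an other unit in bp, which the members did not need. The 5 input libraries were not analysed here.

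For each symbol the window with the highest mean was kept, the upper 50 percent of genes were tested (12097), and values were analysed as log2(density + 0.148), the pseudocount being percentile 25 of the positive values, in libraries centred on their median. Tests were made with limma 3.58.1 (R 4.3.3) on all 31 libraries, with group means, a variance trend and Benjamini-Hochberg adjustment over all genes (residual degrees of freedom 15, prior 18.7). The script was tested on simulated data. Groups that do not overlap have all libraries of one above all of the other on the centred scale. The replicate numbers were not taken as pairs. Alternatives were other pseudocounts (percentiles 10 and 50), no filter, other scalings, no variance trend, the replicate number as a block, only the compared groups, the mean of a symbol's windows, and each library left out; leaving out replicate 1 of 30 min in both arms was added after seeing the data. Members with full values were those called, the 5 highest and lowest in the 2 mean comparisons, the extremes in others and the densest of each family; Hnrnpc, Hnrnpd, Hnrnpk, Hnrnpll and Srsf1 were added after their values were seen. The members and gene lists were chosen with earlier results of these data known. The calls within the list of other splicing regulators are not reported here.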

Additional observations from a re-analysis of the deposited data

How the results depend on the processing

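Counts of members called changed under several settings. At 30 min in vehicle (2 members), the count was 1 with no filter, 4 with values as deposited, and 0 with quantile normalization, cyclic loess, no variance trend, only the groups compared, or without replicate 1 of 30 min in both arms. Over the mean of 10, 30 and 60 min in vehicle (1 member) it was 2 as deposited and 0 under each of the other settings just named. At 30 min in U0126 (1 member) it was 0 under each of them except values as deposited, and 0 with the mean over a symbol's windows, where 43 members pass the filter. Leaving out 1 library gave 0 to 8 at 30 min in vehicle, 0 to 8 for the vehicle mean, 0 to 1 at 30 min in U0126 and 0 to 1 for the U0126 mean. Both other pseudocounts changed no count, and the counts of the U0126 effect and of the test between arms were 0 under all alternatives run.

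With the replicate number as a block, 10 members were called at 30 min in vehicle (of 662 genes), 9 for the vehicle mean (of 570), 4 at 30 min in U0126 (of 326), 2 for the U0126 mean (of 272) and 1, Hnrnpf, at 10 min in vehicle (of 131). Srsf2, Srsf5, Srsf7, Hnrnpc, Hnrnpf and Hnrnph2 are among those called at 30 min in vehicle. Same-numbered libraries deviated together with r over 0.1 in 95 of 105 pairs of groups (median 0.256, range -0.042 to 0.503). The labels give the number no meaning and groups have 2 libraries, so the block was not used in the report.

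Among single members, these log2 differences changed sign. Rbfox2 over the vehicle mean was 0.19 with no filter and 0.062 without replicate 1 of 30 min in both arms. Srsf7 over the vehicle mean was -0.20 with cyclic loess, and its U0126 effect was 0.043 with quantile normalization, 0.11 with cyclic loess and 0.0060 without replicate 1 of 30 min in both arms. The U0126 effect on Hnrnpa2b1 was 0.061 and 0.021 with quantile normalization and cyclic loess, and that on Ptbp2 at 30 min was -0.057 without replicate 1 of 30 min in both arms. Leaving out 1 library also changed signs, with ranges of -0.058 to 1.3 for Celf1 at 180 min in vehicle, -0.67 to 0.030 for Celf4, -0.17 to 0.11 for Rbfox2 and -1.11 to 0.024 for Srsf12 over the vehicle mean, -1.0 to 0.11 for the U0126 effect on Nova1 at 60 min, and -0.044 to 0.19 for Rbfox2 and -0.11 to 0.059 for Srsf7 in the U0126 effect over the 3 times. The cause of these changes was not tested. With 2 libraries a group and unknown depth, small differences could not be called. The alternatives for H3K27ac were not run, since no region has a member as its nearest gene.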
